A study of Oryza sativa with 18 samples.

Results

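The measurements described here concern 5 rice genes of the ZIP family (Zrt- and Irt-like proteins), OsZIP4 (Os08g0207500), OsZIP5 (Os05g0472700), OsZIP8 (Os07g0232800), OsZIP9 (Os05g0472400) and OsZIP10 (Os06g0566300), whose loci stood higher under Zn deficiency in these libraries. OsZIP5 is counted through the locus it shares with OsZIP9, since its own annotated transcript was not higher under -Zn. They were found by their gene names in the locus table and occupied 5 of its 34716 loci and 15 of the 72656 isoforms. The genes were chosen because of their -Zn against +Zn values and their return after Zn resupply in the same libraries, so those values are given as a description and carry no test. The libraries came from shoots (leaf and stem) and roots of Nipponbare seedlings (Oryza sativa ssp. japonica), described in the labels as 4 weeks old, that had spent 10 days on sterile water and 1 week in Yoshida nutrient solution with 1.5 µM ZnSO4. Plants then stayed with 1.5 µM ZnSO4 (+Zn; ZPS for shoots, ZPR for roots) or had ZnSO4 left out for 2 weeks (-Zn; ZMS, ZMR), and some -Zn plants were returned to 1.5 µM ZnSO4 for 3 days (Zn resupply; ZRS, ZRR). Each of the 6 groups held 3 libraries, 18 in all, and each library was made from 3 seedlings mixed together. The resupplied plants were taken at the end of those 3 days, so resupply and the added days cannot be told apart.

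ZIP proteins sit in membranes and move divalent metal ions into the cytosol, from outside the cell or from a compartment. Plants raise the mRNA of a subset of ZIP genes when Zn runs short, and in Arabidopsis F-group bZIP transcription factors, which bind Zn themselves, act on those genes. In rice, OsZIP9 and OsZIP5 are neighbours in tandem that take part in Zn uptake by roots, OsZIP4 is a Zn transporter of the plasma membrane found in vascular tissue and meristems, and OsZIP8 is a plasma membrane Zn transporter that affects how Zn is shared between roots and shoots.

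OsZIP9 is the only one of the 5 genes for which a designed oligonucleotide sequence was at hand, the pair used for its qRT-PCR, which is shown because the OsZIP9 locus is where the transcript models below leave the gene's own level uncertain. By qRT-PCR, the study reported, Os05g0472400 followed a course under Zn deficiency and recovery like that in its sequencing. The pair gives a product of 129 bases, and its place in the genome was not matched here. Both are written 5′ to 3′ in lower case with no part marked.
OsZIP9 forward primer: tcttctcgctaaccacaccg
OsZIP9 reverse primer: agttgaggattccagcagcc

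In the genome build IRGSP-1.0, OsZIP10 lay at chr6:21824110-21827066 with 3 transcript models, OsZIP8 at chr7:7394486-7398274 with 2, and OsZIP4 at chr8:6267823-6270998 with 2, all on the plus strand. OsZIP9 and OsZIP5 fell in a single locus at chr5:23201237-23219318, also on the plus strand, with 7 transcript models, so a locus value there belongs to both genes. The fifth locus carried the OsZIP9 name as a minus-strand model at chr5:23209797-23211399, within an intron of the annotated OsZIP9 transcript and over the ends of other models of the joint locus. It read 0.727 and 0.282 FPKM (fragments for each kilobase of a transcript, relative to library size) in ZMR replicates 1 and 3, 0.0262 in ZRS replicate 2, 0.113 in ZRR replicate 2 and 0 in the other 14 libraries, and was too low to test. Of the 5 loci, 3 passed the filter on low values in shoots and 4 in roots. A locus passed if it had at least 0.5 FPKM in at least 3 libraries, so a locus could pass through the group in which it was high.

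Depth, read as the mean coverage that 1 FPKM stood for, ran from 6.0 to 7.75 reads per base in 17 libraries and was 3.67 in ZRR replicate 3. In ZRS replicate 1, 16.2% of isoform FPKM lay in models within introns, beside genes or in unannotated sequence, against 1.19 to 4.53% elsewhere. Replicate 1 had the highest such share in each of the 6 groups. The labelled tissues were borne out by summed markers: a list of shoot genes summed to between 3081 and 6714 FPKM in shoots and 84.8 to 242 in roots, and a list of root genes to between 747 and 2388 FPKM in roots and 4.12 to 16.7 in shoots. Part of each list carried these sums. Of the 7 root loci, between 2 (ZPR replicate 2) and 5 (ZPR replicate 3) were listed at 0 in a root library, and 4 or 5 in a shoot library. Of the 9 shoot loci, 1 was at 0 in each shoot library. Nothing in the sources used here says whether the libraries kept strand, so reads of a gene and of a gene overlapping it on the other strand cannot be told apart.

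OsZIP10 was low in every library with Zn and high in every library without it. Its 3 ZPS libraries read 3.26, 2.81 and 2.84 FPKM, the ZMS libraries 38.8, 49.6 and 28.4, and the ZRS libraries 1.98, 1.46 and 2.095. In roots the ZPR libraries read 0.749, 0.904 and 0.984 FPKM, the ZMR libraries 32.3, 19.6 and 20.0, and the ZRR libraries 1.63, 1.50 and 1.62. The -Zn libraries did not overlap the others in either tissue, with a ratio of means of 13.1 for ZMS to ZPS and 27.3 for ZMR to ZPR. Since these are bulk tissues, a lower share of cells that express a gene and less mRNA per cell cannot be told apart.

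OsZIP8 had the highest level of the 4 loci in shoots. It read 5.41, 7.97 and 7.14 FPKM in ZPS, 44.9, 53.5 and 53.8 in ZMS and, after resupply, 5.90, 11.2 and 18.4. The 3 ZRS libraries spread over a wider range than those of the other shoot groups relative to their mean, and overlapped ZPS. The overlap came from the library at 5.90 FPKM, replicate 1, which had 16.2% of isoform FPKM in intronic, gene-flanking or unannotated models. Those at 11.2 and 18.4 lay above every ZPS library. Roots held less, with 0.487, 0.855 and 0.909 FPKM in ZPR, 16.2, 14.1 and 14.3 in ZMR and, after resupply, 0.636, 1.14 and 1.20. The ratio of means was 7.41 for ZMS to ZPS and 19.8 for ZMR to ZPR.

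OsZIP4 read 1.58, 2.16 and 1.35 FPKM in ZPS, 8.02, 24.6 and 16.4 in ZMS and, after resupply, 1.67, 1.69 and 2.34. Its ZMS libraries spread widely, yet the lowest of them was above every ZPS and ZRS library. In roots it read 3.08, 2.99 and 2.63 FPKM in ZPR, 37.5, 19.2 and 27.6 in ZMR and, after resupply, 3.40, 2.99 and 6.49. The ZRR library at 6.49 FPKM was replicate 3, the shallowest of the series. The ratio of means was 9.62 for ZMS to ZPS and 9.70 for ZMR to ZPR.

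The joint OsZIP9 and OsZIP5 locus read higher in roots than in shoots in every group, though OsZIP5's annotated transcript did not. In shoots the locus stayed under 1 FPKM throughout, at 0.328, 0.111 and 0.326 in ZPS, 0.584, 0.383 and 0.485 in ZMS and, after resupply, 0.0926, 0.197 and 0.271. Its root levels were 1.64, 1.61 and 1.20 FPKM in ZPR, 35.3, 29.1 and 25.0 in ZMR and, after resupply, 6.54, 6.06 and 2.77. All 3 ZRR libraries lay between ZPR and ZMR, the lowest of them again replicate 3. The ratio of means was 20.1 for ZMR to ZPR and 1.90 for ZMS to ZPS.

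**Figure D1:**
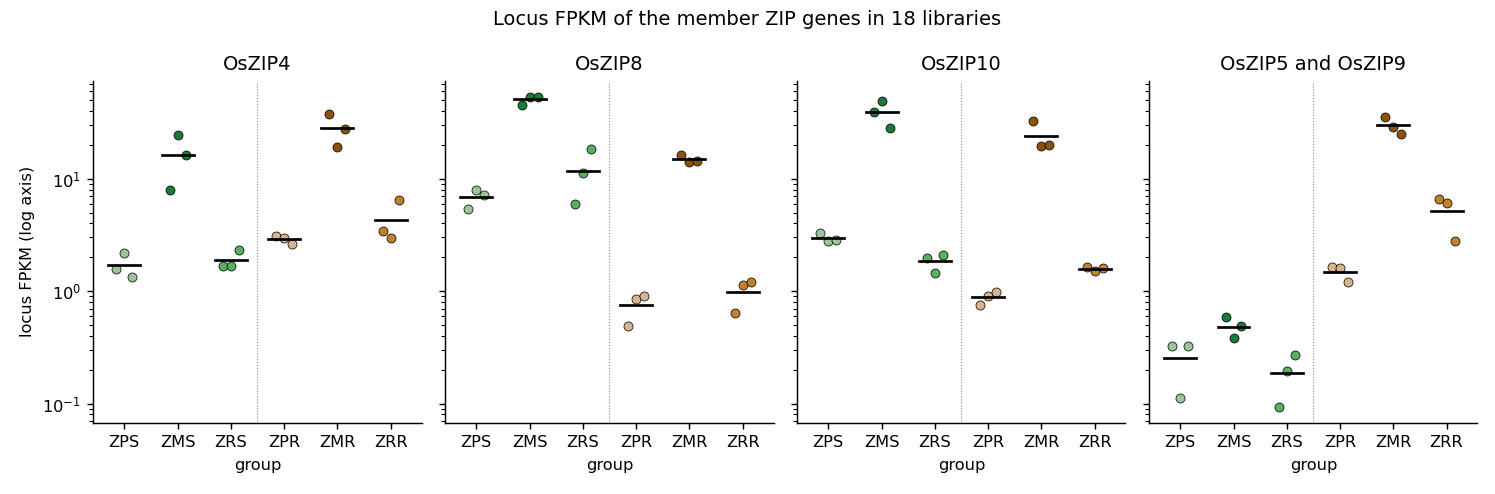
FPKM of the 4 loci (log axis) in each of the 18 libraries by group, with a line at the mean of the 3 libraries. OsZIP10, OsZIP8 and OsZIP4 stand high in ZMS and ZMR alike, while the OsZIP9 and OsZIP5 locus stands high in ZMR, is between ZPR and ZMR in ZRR, and stays under 1 FPKM in every shoot library.

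The 3 libraries of the -Zn group lay above the 3 of the +Zn group at 4 of 4 loci in shoots and at 4 of 4 in roots, and above the 3 resupplied libraries in the same numbers. Because the genes were picked on these contrasts, nothing is read from those counts. The joint locus did not pass the filter in shoots. How many of all loci were free of overlap was not counted, and the shares called are a different measure. Among all tested loci the share called (limma, adjusted p at most 0.05 and log2 fold change of at least 1 in size) was 0.0878% in ZMS/ZPS (0.0634% higher), 0.0683% in ZRS/ZMS (0.0536% lower), 0.046% in ZMR/ZPR (all of it higher) and 0.124% in ZRR/ZMR (0.12% lower). On the log2(FPKM + 0.5) scale used for every fold change here, which understates changes of low genes, OsZIP10 stood 3.47 ± 0.24 (SE) higher in ZMS than in ZPS, OsZIP4 2.82 ± 0.37 and OsZIP8 2.81 ± 0.36. In ZMR against ZPR the difference was 4.11 ± 0.22 for OsZIP10, 3.93 ± 0.30 for the OsZIP9 and OsZIP5 locus, 3.63 ± 0.23 for OsZIP8 and 3.03 ± 0.31 for OsZIP4. Their median was 3.78 in roots, beside 0.00078 over the 21717 loci tested, and 2.82 in shoots, beside 0.034 over 20512. The ratio of the -Zn mean to the resupplied mean was 21.1 for OsZIP10, 8.60 for OsZIP4 and 4.30 for OsZIP8 in shoots. In roots it was 15.1 for OsZIP10, 15.0 for OsZIP8, 6.55 for OsZIP4 and 5.81 for the joint locus.

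Resupplied and +Zn libraries were then compared in each tissue. That contrast did not choose the genes, but all its libraries took part in contrasts that did, so its tests are not fully independent of the choice. In shoots, limma called 0 of 3 loci different between ZRS and ZPS, with 1 at an unadjusted p under 0.05, and 0.0244% of all tested loci were called. OsZIP10 lay lower in all 3 ZRS libraries than in any ZPS library, at 1.84 ± 0.341 against 2.97 ± 0.255 FPKM (SD, n = 3), a log2 difference of -0.57 (95% interval -1.11 to -0.03, limma unadjusted p = 0.0395, adjusted p = 0.983). OsZIP8 overlapped between the groups at a log2 difference of 0.63 (limma adjusted p = 0.983), and so did OsZIP4 at 0.13 (adjusted p = 0.985). The median over the 3 loci was 0.13, beside -0.16 over all loci tested.

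In roots, limma called 0 of 4 loci different between ZRR and ZPR, with 2 at an unadjusted p under 0.05, while 0.023% of all tested loci were called. The OsZIP9 and OsZIP5 locus was higher in all 3 ZRR libraries than in any ZPR library, at 5.12 ± 2.05 against 1.48 ± 0.247 FPKM (SD, n = 3), with a log2 difference of 1.43 (95% interval 0.75 to 2.12, limma unadjusted p = 0.00123, adjusted p = 0.356). The locus was called with array weights, which count variable libraries for less (limma adjusted p = 0.0053), and with all 18 libraries in the fit (adjusted p = 0.0272), where 0.953 and 0.36% of all loci were called. Without ZRR replicate 3 the log2 difference was 1.79 (limma adjusted p = 0.0515), and over the alternatives the adjusted p ran from 0.0053 to 0.989. OsZIP10 also lay higher in all 3 ZRR libraries, at 1.58 ± 0.0691 against 0.879 ± 0.119 FPKM (SD, n = 3), a log2 difference of 0.60 (limma unadjusted p = 0.0243, adjusted p = 0.942). OsZIP4 at 0.43 and OsZIP8 at 0.25 overlapped between the groups. The median over the 4 loci was 0.51, beside 0.079 over all loci.

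The genes differed in where they were expressed. In the +Zn groups, limma called 3 of 4 loci different between roots and shoots, against 34.1% of all tested loci. One of the 3 was the OsZIP9 and OsZIP5 locus, 1.40 higher in ZPR than in ZPS on the log2 scale. It passed the filter only through its root libraries and so had to differ between tissues, and its values here and in the other comparisons of roots with shoots are a description with no p. OsZIP8 was lower by a log2 difference of -2.56 (limma adjusted p = 5.8e-06) and OsZIP10 by -1.33 (adjusted p = 1.5e-04). OsZIP4 gave 0.64 and was not called (limma adjusted p = 0.152), although its 3 ZPR libraries were all above the ZPS libraries. The median over all loci was itself 0.38 in ZPR/ZPS, 0.36 in ZMR/ZMS and 0.58 in ZRR/ZRS, and the 4 loci had medians of -0.34, 0.079 and 0.39.

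Under -Zn, 2 of 4 loci were called between roots and shoots, against 31.9% of all loci. They were the OsZIP9 and OsZIP5 locus, at 4.94 on the log2 scale, and OsZIP8, at -1.74 (limma adjusted p = 2.7e-04). OsZIP10 differed by -0.69 (limma adjusted p = 0.0189), below the fold threshold, and OsZIP4 by 0.85 (adjusted p = 0.0660). OsZIP4 passed both thresholds without ZMS replicate 2 (1.20, limma adjusted p = 0.0152) or without ZMR replicate 2 (1.09, adjusted p = 0.0383).

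After resupply, 2 of 4 loci were called between ZRR and ZRS, against 39.4% of all loci. The joint locus stood 2.96 higher in roots, and OsZIP8 was lower in roots with a log2 difference of -2.93 (limma adjusted p = 1.5e-06). OsZIP4 gave 0.94 (limma adjusted p = 0.0362), just under the fold threshold, and OsZIP10 -0.16 (adjusted p = 0.560). With 4 loci and so many loci of all kinds differing between the tissues, nothing particular to these genes is read from the counts.

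**Figure D2:**
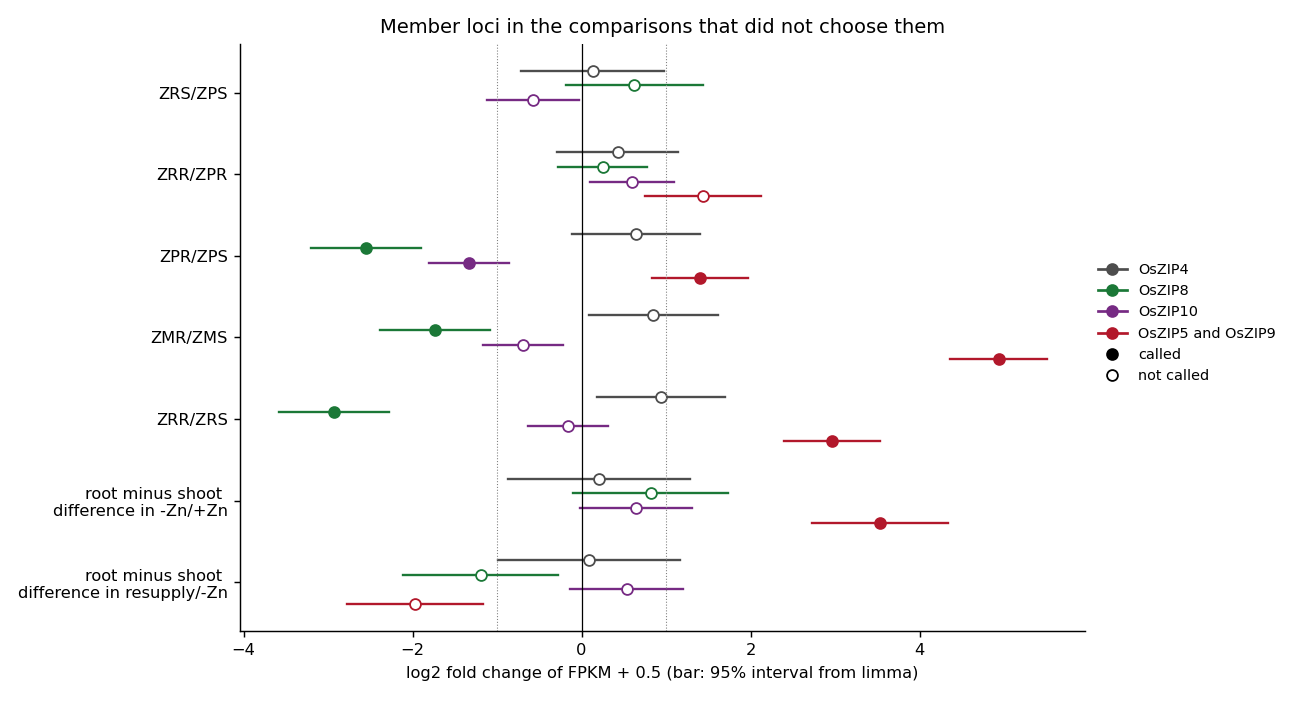
Log2 fold change, on the log2(FPKM + 0.5) scale, of the member loci in 7 tested comparisons, with 95% intervals and filled points for those that passed both thresholds. The OsZIP9 and OsZIP5 locus lies to the right in every comparison of roots with shoots and at 3.54 in the root minus shoot difference of the -Zn response, having passed the filter only through roots, while OsZIP8 lies to the left in the 3 comparisons of roots with shoots.

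The response to Zn deficiency was compared between tissues as an interaction over all 18 libraries. It is built from the contrasts that chose the genes, so the members' values are a description with no p. For the OsZIP9 and OsZIP5 locus the root value exceeded the shoot value by 3.54 on the log2 scale (95% interval 2.73 to 4.34). Limma called 1 locus of 4, this one, against 0.0655% of all tested loci (0.0327% higher in roots), and nothing is read from that count, since the locus was chosen on its -Zn values and passed the filter only through roots. The difference was 0.82 for OsZIP8, 0.64 for OsZIP10 and 0.21 for OsZIP4. For OsZIP4 the ratios of means, 9.62 in shoots and 9.70 in roots, were close, and the sign of its difference between tissues changed under other settings.

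The return after resupply, also a contrast that chose the genes, differed between roots and shoots by -1.97 for the joint locus, -1.20 for OsZIP8, 0.53 for OsZIP10 and 0.09 for OsZIP4. Limma called 0 of 4 loci, with 2 at an unadjusted p under 0.05, against 0.106% of all loci, and nothing is read from those counts. With array weights the joint locus (-1.82) and OsZIP8 (-1.56) were called, and the share of all loci called then rose to 6.66%. A further contrast, chosen after the data were seen, set the resupplied level against +Zn in roots and shoots. OsZIP10 gave 1.17 (95% interval 0.51 to 1.84, limma unadjusted p = 0.00192, adjusted p = 0.376). The joint locus gave 1.56, a description with no p, since it passed the filter only through roots. Limma called 0 of 4, with 2 at an unadjusted p under 0.05, the joint locus among them, against 0.09% of all loci called.

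At the OsZIP9 and OsZIP5 locus, the transcript models divide the signal by position. OsZIP9's annotated transcript (Os05t0472400-00) has 4 exons and 1205 bases at chr5:23201237-23212773, and OsZIP5's (Os05t0472700-01) has 3 exons and 1431 bases at chr5:23216442-23218934. The end of the first and the start of the second are 3668 bases apart. A model with 5 exons and 6665 bases, MSTRG.15941.2 at chr5:23204483-23219318, bridges the gap and overlaps both genes. The other 4 models end within the OsZIP9 span. FPKM of the bridging model cannot be divided between the genes.

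The bridging model held most of the locus in roots. It read 2.50, 2.47 and 1.36 FPKM in ZPR, 43.9, 39.3 and 35.8 in ZMR and, after resupply, 8.98, 9.17 and 3.96. The ZRR libraries again fell between the other groups, and the ratio of means was 18.8 for ZMR to ZPR. In the 3 ZMR libraries it accounted for 78.7, 85.3 and 90.5% of the FPKM times length of the locus, with a mean coverage of 278, 280 and 238 reads per base. In shoots it read at most 0.830 FPKM, in ZMS replicate 1.

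**Figure D3:**
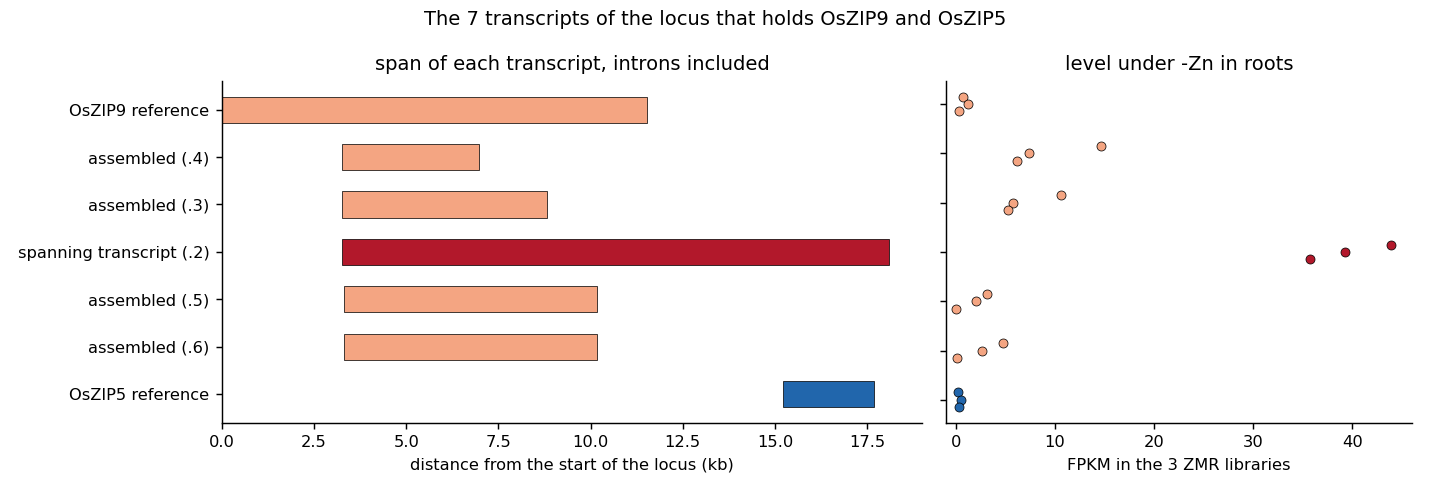
Spans of the 7 transcript models of the OsZIP9 and OsZIP5 locus in kb from the locus start (introns included), and on the right the FPKM of each in the 3 ZMR libraries. The model that bridges both genes has 43.9, 39.3 and 35.8 FPKM, whereas the annotated transcripts of OsZIP9 and OsZIP5 reach at most 1.29 FPKM.

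The 5 models that lie within the OsZIP9 span, summed, followed the same course. They read 0.284, 0.134 and 0.780 FPKM in ZPR, 33.9, 19.2 and 12.01 in ZMR and, after resupply, 4.38, 1.37 and 1.12. The ZMR libraries lay far above ZPR, with a ratio of means of 54.3, and all 3 ZRR libraries lay above ZPR, with a ratio of 5.73. Within this sum, MSTRG.15941.4 (1877 bases) read 14.6, 7.38 and 6.17 FPKM in ZMR and MSTRG.15941.3 (2228 bases) read 10.6, 5.83 and 5.32. The annotated OsZIP9 transcript itself had 0.696, 1.29 and 0.345 FPKM there and no more than 0.267 in any other library. Taken by that transcript alone, OsZIP9 would have 0.776 FPKM in ZMR on average instead of 21.7 for the sum.

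OsZIP5's annotated transcript did not show the pattern. It read 0.0379, 0.137 and 1.31 FPKM in ZPR and 0.213, 0.540 and 0.342 in ZMR, and 0.119, 0.553 and 1.07 in ZPS and 0.348, 0.758 and 0.344 in ZMS. The -Zn and +Zn libraries overlapped in both tissues. In ZRR it read 0.0532, 0.0736 and 0.0914 FPKM, below every ZMR library and every ZRS library (0.263, 0.195 and 0.467). This transcript thus fell after resupply in roots, at low levels, but did not rise under -Zn. A rise of OsZIP5 under -Zn in these files rests on the bridging model, and OsZIP5's part in that model cannot be told apart from OsZIP9's.

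**Figure D4:**
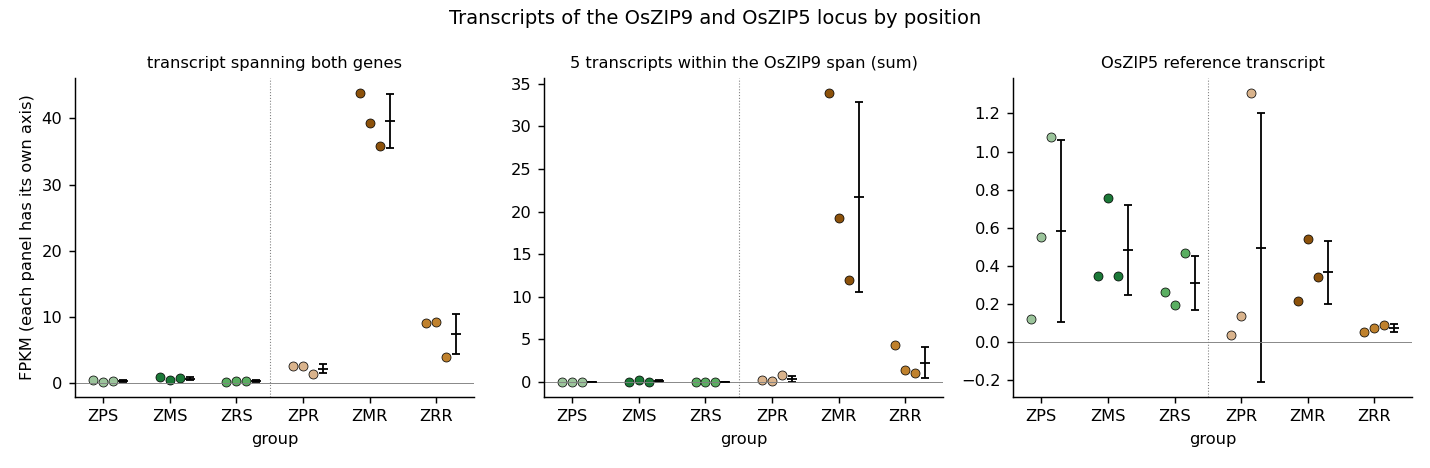
FPKM by group of the bridging model, of the 5 models within the OsZIP9 span summed, and of the OsZIP5 annotated transcript (points, libraries; bars, mean ± SD of 3). ZMR means are 39.7, 21.7 and 0.365 FPKM in that order, and the OsZIP5 transcript shows overlapping +Zn and -Zn libraries in shoots and roots.

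Tested singly, 3 of the 11 transcript models that passed the filter over all libraries were called in the root minus shoot difference of the -Zn response, against 0.0462% of all isoforms. All 3 belong to the OsZIP9 and OsZIP5 locus: MSTRG.15941.4 at 3.86, MSTRG.15941.3 at 3.67 and the bridging MSTRG.15941.2 at 3.40 on the log2 scale. They were chosen with their locus on -Zn and passed the filter through root libraries, so nothing is read from that count. The OsZIP5 annotated transcript gave 0.07. In the difference of the return after resupply 0 of 11 were called (0.0642% of all isoforms). Between roots and shoots, 3 of 11 models were called in +Zn, 5 in -Zn and 4 after resupply, against 23.3, 21.7 and 26% of all isoforms, and 0 of the 4 annotated transcripts tested were among them. Models of the joint locus passed the filter through roots, so nothing is read from these counts. Between resupplied and +Zn libraries, 0 of 8 models were called in shoots (0.0439% of all isoforms) and 0 of 9 in roots (0.0243%).

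The split among transcript models varied between libraries of a group, so single models were a poor measure of the other genes. OsZIP8's annotated transcript carried 69.2% of its FPKM times length in ZMR replicate 1 and 0% in replicates 2 and 3, and 60.9, 4.31 and 3.87% in the ZRS libraries. The second OsZIP8 model, MSTRG.19870.2, took the rest, and its 5.25, 14.8 and 15.0 FPKM in ZMR mirrored that split while the locus read within 14.1 and 16.2. OsZIP10's annotated transcript took 0, 99.5 and 65.8% in ZPR. OsZIP4's took between 59.0 and 87.0% over all 18 libraries, with both ends of that range in ZMS, in replicates 1 and 2.

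**Figure D5:**
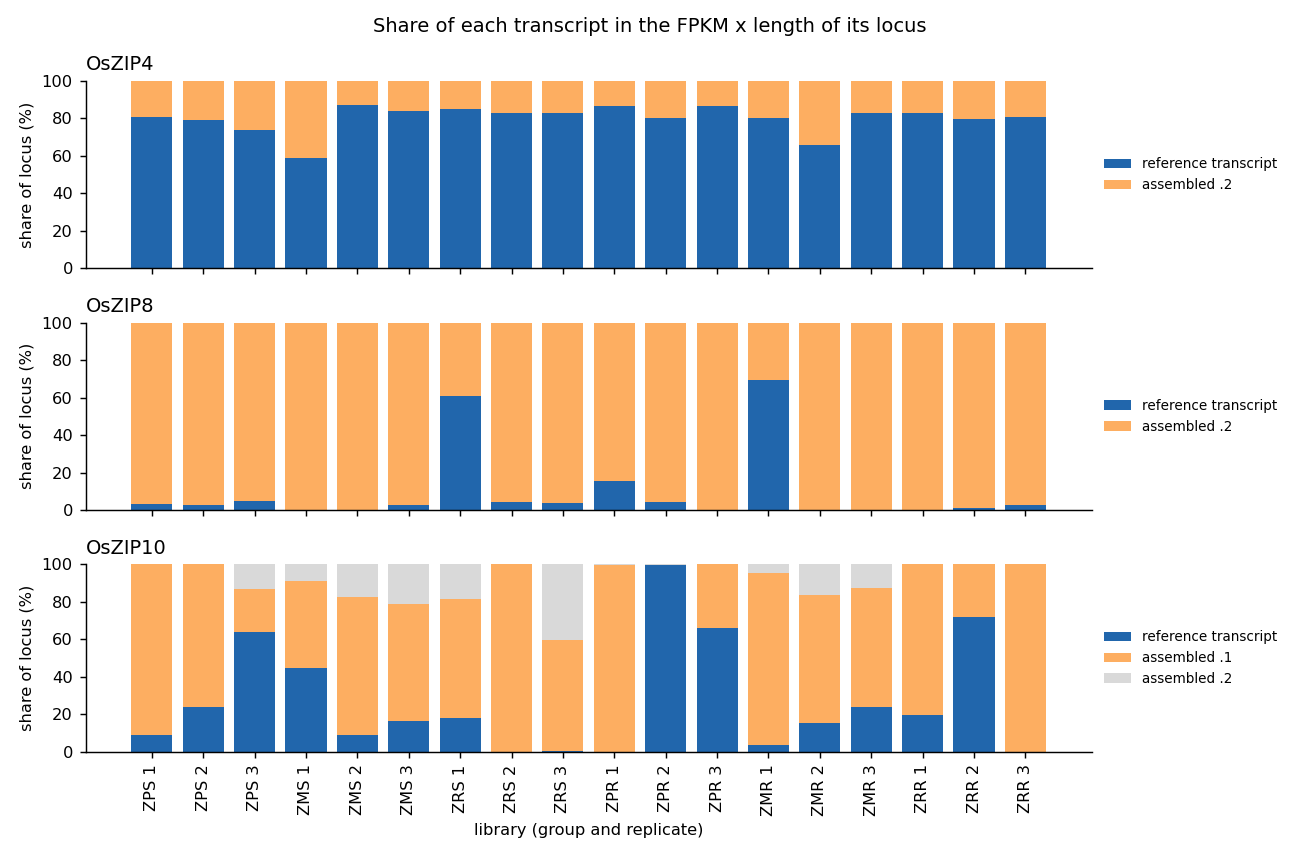
Share of FPKM times length (percent) that each transcript model of OsZIP4, OsZIP8 and OsZIP10 holds in each of the 18 libraries, stacked to 100. The annotated OsZIP4 transcript holds 59.0 to 87.0%, both in ZMS libraries, while OsZIP8 in ZMR replicate 1 and OsZIP10 in the ZPR libraries change model within a group.

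Each member locus had loci on the other strand overlapping it. At OsZIP10 the overlapping gene is Os06g0566201, which read 1.59, 1.48 and 1.06 FPKM in ZPS, 28.2, 25.5 and 9.07 in ZMS and, after resupply, 1.50, 1.65 and 1.28. Root libraries gave 0.426, 0.394 and 0.374 FPKM in ZPR, 23.5, 10.0 and 7.94 in ZMR and, after resupply, 1.04, 0.841 and 0.742. Its group means were between 0.453 and 0.8003 of those of OsZIP10, so its values moved with OsZIP10 in both tissues, and the part of either gene in the other's reads was not tested. The joint locus had 3 such loci, of which Os05g0472300 overlapped it by 202 bases. That gene had means of 8.55 FPKM in ZPS and 13.9 in ZPR, against 0.255 and 1.48 for the joint locus. In ZMR it had 16.1, against 29.8, and its part in the reads of the joint locus was not tested. The overlapping genes at OsZIP8 and OsZIP4 were low. Os07g0232850, over OsZIP8, read 3.03, 0.809 and 0 FPKM in ZMS, where OsZIP8 had 44.9 or more. Os08g0207401, over OsZIP4, read 0.221, 1.04 and 0.313 FPKM in ZMS and 0.581, 1.15 and 1.18 in ZMR.

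Of the flanking loci, an unnamed 6-exon locus on the same strand, MSTRG.18312, begins 1483 bases beyond the end of OsZIP10. It read 0.170, 0.166 and 0.199 FPKM in ZPS, 2.40, 1.76 and 1.60 in ZMS and, after resupply, 0.142, 0.254 and 0.105. Root libraries gave 0.0172, 0.0375 and 0 FPKM in ZPR, 0.821, 0.510 and 0.333 in ZMR and, after resupply, 0.0620, 0.0147 and 0.120. The -Zn libraries of this locus lay above the others in both tissues, as those of OsZIP10 did. OsHMA3 (Os07g0232900), whose product carries Cd and Zn into root vacuoles, lies beside OsZIP8 and did not share its course: its root means were 11.2 FPKM in both ZPR and ZMR, with 9.45 in ZRR.

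Added up, the 4 loci reached 11.8 ± 1.24 FPKM in ZPS, 106 ± 19.0 in ZMS and 15.7 ± 6.79 in ZRS (SD, n = 3). The root sum was 96.7 ± 21.4 FPKM in ZMR, 6.01 ± 0.323 in ZPR and 11.99 ± 0.269 in ZRR. On locus FPKM the 2 tissues thus came to a like sum under -Zn from a different mix. OsZIP8 made up 48.2% of the sum in ZMS and 15.6% in ZMR, and the OsZIP9 and OsZIP5 locus 0.474% and 31.1%. These sums and shares depend on how a locus level is defined. With isoform FPKM summed instead, ZMR means were 61.7 for the joint locus, 40.4 for OsZIP4, 25.7 for OsZIP10 and 17.8 for OsZIP8. In ZMS they were 1.23, 23.7, 43.6 and 53.7 in the same order, so a like sum is not settled. FPKM is per length, so the order of loci within a library can be read. OsZIP8 was highest and the joint locus lowest in 9 of 9 shoot libraries. In roots OsZIP8 was lowest in 9 of 9, and OsZIP4 was highest in 6 and the joint locus in 3. Taking each locus as the sum of its isoforms' FPKM, a level defined after the data were seen, put the joint locus highest in 5 root libraries and OsZIP4 in 4, and in shoots OsZIP8 highest in 8 libraries and OsZIP10 in 1, ZMS replicate 1, so the upper places in roots are not settled. In ZMS the libraries of OsZIP8 (50.7 ± 5.05 FPKM, SD) and OsZIP10 (38.9 ± 10.6) overlapped in range. In ZMR, so did those of the joint locus (29.8 ± 5.17), OsZIP4 (28.1 ± 9.16) and OsZIP10 (24.0 ± 7.22).

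Across the 9 root libraries, log2 levels of the 4 loci ran together, with Pearson's r between 0.900 and 0.989 over the 6 pairs, and across the 9 shoot libraries r lay between 0.650 and 0.944. Over all 18 libraries it spread from -0.126, for OsZIP8 with the joint locus, to 0.848, for OsZIP10 with OsZIP4. These points share their treatment groups and libraries, and the genes were chosen for that response, so r is a description only.

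By the same measure over all 18 libraries, the locus most like the OsZIP9 and OsZIP5 locus was Os04g0304400, annotated as similar to a MADS-box protein (r = 0.982), with means of 8.26 FPKM in ZMR, 0.507 in ZPR and 1.83 in ZRR. The next were the unnamed MSTRG.28607 (r = 0.965) and Os02g0271600 (r = 0.952), annotated as a subtilase. OsZIP10 was most like Os06g0566201, the gene overlapping it (r = 0.980), then Os10g0328600 (r = 0.962) and Os04g0280500 (r = 0.937), the latter annotated as F-box-like. Os10g0328600 had means of 0.0219 FPKM in ZPS, 8.27 in ZMS and 0.184 in ZRS, and of 0.114 in ZPR, 6.52 in ZMR and 0.128 in ZRR. OsZIP4 was most like Os04g0280500 (r = 0.939), Os10g0328600 (r = 0.909) and its overlapping gene Os08g0207401 (r = 0.892). OsZIP8 had the weakest likenesses, with Os04g0534500 (r = 0.858), MSTRG.18312 (r = 0.845) and OsZIP10 (r = 0.837). These loci were picked by their pattern, so their likeness carries no test.

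The other rice ZIP genes in the list covered 12 loci of 11 genes. Limma called 0 of 9 tested in ZMS/ZPS, with 1 at an unadjusted p under 0.05, and 0 of 11 in ZMR/ZPR, 3 of which had an unadjusted p under 0.05. With 0.0878 and 0.046% of all loci called in these comparisons, such counts of 0 say nothing particular about the other ZIP genes, and the replicate block left them at 0. Limma also called 0 in ZRS/ZMS, ZRR/ZMR and ZRS/ZPS, with 1 each at an unadjusted p under 0.05, and 0 in ZRR/ZPR, with 2. OsZIP7, a Zn transporter that serves Zn delivery from roots to shoots and grain, came closest in shoots, at 2.04, 1.50 and 1.85 FPKM in ZPS, 6.21, 11.98 and 8.00 in ZMS and, after resupply, 1.72, 1.62 and 3.02. Its ZMS libraries did not overlap the others, yet the log2 difference of 1.97 had a limma adjusted p of 0.108. In roots OsZIP7 read 14.8, 11.6 and 13.1 FPKM in ZPR and 29.9, 21.9 and 22.3 in ZMR, a log2 difference of 0.88 (limma adjusted p = 0.372).

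Between roots and shoots, 6 of the 12 other ZIP loci were higher in roots in +Zn, 6 in -Zn and 7 after resupply. None was higher in shoots, and 20.5, 18.5 and 27.6% of all loci were higher in roots. Of the 12, 9 passed the filter in shoots and 11 in roots. A locus that passed only through roots had to lean to roots, so nothing is read from these counts. In the root minus shoot difference of the -Zn response 1 of the 12 was called, against 0.0655% of all loci. It was OsIRT2, an Fe2+ transporter of roots, at -1.90. Its ZPR libraries read 1.58, 1.78 and 2.46 FPKM and its ZMR libraries 0.0408, 0.0437 and 0.368, so it stood on the other side of the comparison from the OsZIP9 and OsZIP5 locus. It was listed at 0 in the 3 ZMS libraries.

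A list of 20 loci for other Zn handling held the heavy metal ATPases OsHMA2 and OsHMA3, OsMTP1, nicotianamine synthases, OsNAAT1 and loci annotated with Zn transport across membranes, of which 13 were tested in shoots and 15 in roots. A single gene passed the thresholds on -Zn, OsNAAT1, a nicotianamine aminotransferase of phytosiderophore synthesis. Its log2 fold change was 3.62 in ZMS/ZPS and -2.38 in ZRS/ZMS. The list was written with earlier results of these data known. The study had also reported this gene, from the same libraries, as raised in Zn-deficient shoots and returned by resupply. Its values are therefore a description with no p, and nothing is read from its calls. In both comparisons same-numbered libraries deviated together, and with the replicate number as a block OsNAAT1 kept the first call and lost the second. Its means were 5.81 FPKM in ZPS, 76.6 in ZMS, 15.0 in ZRS, 287 in ZPR, 141 in ZMR and 72.8 in ZRR. Limma called 0 of these loci in ZMR/ZPR and ZRR/ZPR, with 2 each at an unadjusted p under 0.05, and 0 in ZRR/ZMR and ZRS/ZPS, with 1 each.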

How the data were processed

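Per the submitters' processing notes and the study's methods, the authors filtered reads (FastQC), mapped them with Bowtie2 and TopHat to IRGSP-1.0 and estimated FPKM with Cufflinks, per locus and per isoform and without pooling replicates. The tool that assembled the loci and the strandedness are not given in the sources used here. The deposited isoform file also gives coverage, the mean reads per base, a constant multiple of FPKM within a library. It was used for depth alone. The deposited locus FPKM equalled the sum over isoforms of FPKM times length, divided by the locus length.

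No counts were used, so FPKM was tested as log2(FPKM + 0.5) with limma 3.58.1 in R 4.3.3 (eBayes with trend, two-sided), with the 9 libraries of a tissue or all 18, keeping features at 0.5 FPKM or more in at least 3 libraries: 20512 loci in shoots, 21717 in roots and 24431 over all. P-values were adjusted by Benjamini-Hochberg over all features tested, and calls needed an adjusted p of at most 0.05 and a log2 fold change of at least 1 in size. The steps were tested on simulated data. Tables and figures used Python 3.11.15, pandas 2.3.3, numpy 2.4.6 and matplotlib 3.10.9.

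The rule allowed naming the member loci, all their transcript models, 2 flanking loci on each side and the 3 loci most correlated with each member. From the 2 lists of other genes it allowed those past the thresholds, up to 4 a list. Not all of the flanking loci and transcript models were named. OsZIP7 and OsHMA3 were described as well, OsZIP7 after its values were seen. The members and lists were chosen with earlier results of these data known, so no p is given for members in contrasts that chose them or differences built from those. None is given for OsNAAT1 either, since the study had reported its response from these libraries. Same-numbered libraries deviated together (all 3 correlations above 0.1) in ZMS/ZPS, ZRS/ZMS and ZMR/ZPR. The replicate 1 pair had the highest of the 3 correlations in every comparison, from 0.285 in ZRR/ZMR to 0.499 in ZMS/ZPS. With 3 libraries a group, an exact test of a single value cannot go below p = 0.1. Replicates are separate pools of seedlings according to the labels. The alternatives were other pseudocounts, a higher filter or none, no eBayes trend, zeros as missing, median or quantile scaling, array weights, the other set of libraries, a replicate block and leaving out each library.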

Additional observations from a re-analysis of the deposited data

Results flagged for a closer look

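At the OsZIP9 and OsZIP5 locus the response to -Zn differed between tissues by 3.54 on the log2 scale, higher in roots, and for 3 of its transcript models by 3.86 (MSTRG.15941.4), 3.67 (MSTRG.15941.3) and 3.40 (MSTRG.15941.2). These differences passed the thresholds, but the genes were chosen on -Zn values and the locus and models passed the filter through root libraries, so they stand as a description. Among the other genes, the difference was -1.90 for OsIRT2 and -4.64 for OsNAAT1. OsIRT2 passed the filter only through roots, and OsNAAT1 was listed with earlier results of these data known. Both values are therefore a description. OsZIP10 lay on opposite sides of +Zn after resupply in the tissues: the ratio of means was 0.621 for ZRS to ZPS, with every ZRS library below every ZPS library, and 1.80 for ZRR to ZPR, with every ZRR library above every ZPR library. The test of that difference, added after these values were seen, gave 1.17 (limma adjusted p = 0.376) and was not called. Groups of 3 libraries were too small to look for single libraries that stand apart.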

How the results depend on the processing

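The count of member loci called between ZRR and ZPR rose from 0 to 1 with array weights and with all 18 libraries. In the root minus shoot difference of resupply against -Zn it rose from 0 to 1 with a pseudocount of 1 and with zeros taken as missing, to 2 with array weights, and ran from 0 to 1 when single libraries were left out, the 1 without ZRR replicate 1 (OsZIP9 and OsZIP5 locus, -2.17). That difference is built from contrasts that chose the genes, so nothing is read from these calls. Annotated transcripts called in any comparison rose from 0 to 1 without the filter and to 3 with zeros as missing, and ran from 0 to 1 with single libraries left out. OsZIP4 changed sign in that resupply difference with a pseudocount of 1 (-0.0062), median scaling (-0.13), quantile normalization (-0.22) and array weights (-0.052), and ran from -0.26 to 0.51 with libraries left out. In the -Zn difference it gave -0.034 with array weights and ran from -0.22 to 0.56. OsZIP5's annotated transcript gave -0.0067 there with quantile normalization and ran from -0.27 to 0.61, from -0.78 to 0.090 in ZPR/ZPS and from -0.32 to 0.015 in ZMR/ZMS. The cause was not tested for any of these. In ZPR/ZPS the joint locus fell to 0.98 with a pseudocount of 1, under the fold threshold, and OsZIP4 in ZRR/ZRS passed it with a pseudocount of 0.1 (1.07) and without ZRS replicate 3 (1.07), ZRR replicate 1 (1.05) or ZRR replicate 2 (1.13). The replicate block left the counts at 0 in ZRS/ZPS, 0 in ZRR/ZPR, 3 in ZPR/ZPS, 2 in ZMR/ZMS, 2 in ZRR/ZRS, 1 in the -Zn difference and 0 in the resupply difference, and changed no call of a member locus. In each comparison in which members were tested, at least 1 pair of same-numbered libraries had deviations correlated at 0.1 or less, so the numbers were not taken to pair libraries there. In ZMS/ZPS, ZRS/ZMS and ZMR/ZPR all 3 pairs were above 0.1, and among the other ZIP and Zn handling loci the block, run for them after seeing the data, ended 1 call, OsNAAT1 in ZRS/ZMS. Levels from summed isoform FPKM, chosen after seeing the data, changed no call. The share of all loci called ranged over the alternatives from 0.00305 to 0.953% in ZRR/ZPR and from 0.0778 to 6.66% in the resupply difference, lowest without the filter and highest with array weights. ZRR replicate 3 had the lowest depth, which limits the resupplied roots.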
